A study of Mus musculus with 6 samples.

Results

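The genes described here are 10 members of the Notch pathway, measured in mouse T cell acute lymphoblastic leukemias (T-ALL) that had been driven by active Notch. They comprise the receptors Notch1, Notch2 and Notch3, the DNA-binding factor Rbpj, and the reported direct targets Hes1, Hes5, Heyl, Dtx1, Nrarp and Ptcra. They were chosen by gene symbol, with 1 probe set per gene, and all 10 were found among 19938 genes with a probe set of 1 symbol. All 10 also passed the filter on dim genes and were among the 13956 genes tested. The study asked how the leukemias change when the gene for the transcription factor Zfx is deleted, and the values below show where the Notch pathway stood in that comparison.

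Leukemias had been made by retroviral transfer of Notch-IC, the active intracellular part of Notch, into blood progenitors. Both groups carried the Notch-IC retrovirus, a Cre-ER transgene that tamoxifen activates and the conditional Zfx fl/y allele. The promoter of the Cre-ER transgene, the Notch gene from which Notch-IC came, and the strain and age of the mice are not given in the sources used. Cells of 3 independent lines, 14843, 14844 and 14846, were grown in sublethally irradiated secondary recipients, which keep blood cells of their own. From day 10 after transplant, the recipients were given Vehicle (labelled ZFX flox) or 5 mg of Tamoxifen a day by gavage (labelled ZFX null) for 3 days. At 48 h past the final dose, leukemia cells were recovered by sorting for GFP. Each line gave 1 array per treatment, 6 arrays in all. No control group received Tamoxifen while lacking Cre or the conditional allele, so effects of drug, Cre and deletion cannot be told apart.

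Notch receptors are cut when a ligand on a neighbouring cell binds them, and the freed intracellular part enters the nucleus. There it joins Rbpj and a Mastermind coactivator and turns on target genes, among them the Hes and Hey repressors, the ubiquitin ligase gene Dtx1 and the feedback inhibitor Nrarp. In the thymus the pathway directs progenitors to the T lineage, and its targets there include Notch3 and Ptcra, the invariant chain of the pre-T cell receptor. Activating mutations of NOTCH1 are common in human T-ALL.

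Across all genes, 870 of 13956, or 6.23%, differed between treatments at an adjusted p under 0.05. Of these, 79.1% were lower in arrays labelled Tamoxifen, and after each array was centred on the median of the tested genes 57.7% of the 974 genes then called were lower. The Zfx probe set read 2017, 1913 and 1681 intensity units in Vehicle arrays of lines 14843, 14844 and 14846, and 1996, 2024 and 1864 in their Tamoxifen arrays. Zfx was therefore not lower in the arrays labelled ZFX null, and where its probes lie relative to the deleted part is not given in the sources used. Groups are named as labelled. All 10 measured T lineage markers of 11 listed were above the filter on dim genes, Cd3e, Thy1 and Cd8a among them, and 0 of them was called between treatments by limma. Csf1r, Adgre1, Cd14 and Mrc1 (macrophages) and Cd79a, Ms4a1 and Ebf1 (B cells) were below that filter, while Cd79b, Pax5, Itgam, Lyz2 and all 6 neutrophil markers were above it. Each array pools many cells, so fewer cells of a type and less RNA per cell cannot be told apart.

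Promoter sequence from RefSeq (build GRCm38.p6) was at hand for 8 of the 10 genes, in windows of the 250 bases before an annotated start. They were searched on both strands for TGGGAA, the core bound by Rbpj, and for AGGCCT, a core reported for Zfx that reads the same on both strands. The 4 windows shown belong to Notch3, Nrarp and Ptcra, which had the largest differences among members with a match, and to Hes5, whose sign varied between lines. Capitals mark the matches, which nowhere overlap. All are written 5′ to 3′ on the gene's strand.
Notch3: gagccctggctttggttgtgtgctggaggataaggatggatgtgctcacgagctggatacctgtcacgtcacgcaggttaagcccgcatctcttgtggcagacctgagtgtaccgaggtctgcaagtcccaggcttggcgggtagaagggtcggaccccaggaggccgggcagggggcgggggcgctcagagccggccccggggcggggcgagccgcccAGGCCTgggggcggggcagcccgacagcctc
Nrarp: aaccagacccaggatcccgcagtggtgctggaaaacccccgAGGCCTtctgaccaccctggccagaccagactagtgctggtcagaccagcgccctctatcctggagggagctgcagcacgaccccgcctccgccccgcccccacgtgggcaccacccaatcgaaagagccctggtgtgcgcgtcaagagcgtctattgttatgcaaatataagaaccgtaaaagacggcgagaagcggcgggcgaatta
Ptcra: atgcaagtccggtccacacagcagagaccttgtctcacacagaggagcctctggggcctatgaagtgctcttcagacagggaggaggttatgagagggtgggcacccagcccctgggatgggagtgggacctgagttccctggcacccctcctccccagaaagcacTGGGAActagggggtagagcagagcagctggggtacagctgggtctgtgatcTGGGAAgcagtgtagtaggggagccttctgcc
Hes5: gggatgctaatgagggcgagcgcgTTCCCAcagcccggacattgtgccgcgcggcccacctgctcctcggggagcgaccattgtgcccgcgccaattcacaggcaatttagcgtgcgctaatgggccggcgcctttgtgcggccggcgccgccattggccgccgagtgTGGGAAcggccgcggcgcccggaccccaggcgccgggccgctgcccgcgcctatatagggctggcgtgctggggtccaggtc
The Notch3 window is chr17:32166891-32167140 on the minus strand and holds 1 AGGCCT that begins 31 bases before the start. The Nrarp window, chr2:25180508-25180757 on the plus strand, holds 1 AGGCCT that begins 209 bases before the start. The Ptcra window, chr17:46763713-46763962 on the minus strand, holds 2 TGGGAA cores, and the Hes5 window, chr4:154960673-154960922 on the plus strand, holds 1 on each strand. Rbpj has 2 windows, which overlap each other, and both hold both motifs, while Notch1, Notch2 and Dtx1 hold neither. TGGGAA or its complement TTCCCA occurs in 21.6% and AGGCCT in 8.7% of 32851 windows of this length in the same table. A match describes letters and does not show binding.

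All 10 genes read above the filter value of 6.70 log2 units on every array, with Hes5 the lowest at 8.69. The filter itself was set on the mean over the 6 arrays and is no test of detection. Of the 10, 9 had a fitted Tamoxifen minus Vehicle difference below 0. None passed the limma adjusted p of 0.05, against 6.23% of all tested genes, while 4 of 10 (Notch2, Notch3, Nrarp and Ptcra) were lower at an unadjusted p under 0.05, against 13.3% of all tested genes. In 7 of 10 the Tamoxifen array was below the Vehicle array in each of the 3 lines, against 20.2% of all tested genes. The median difference of the 10 was -0.13 on the log2 scale, beside 0.03 over all tested genes. Members share a pathway and the same arrays and were chosen with earlier results known, so these shares are a description with no test.

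**Figure D1:**
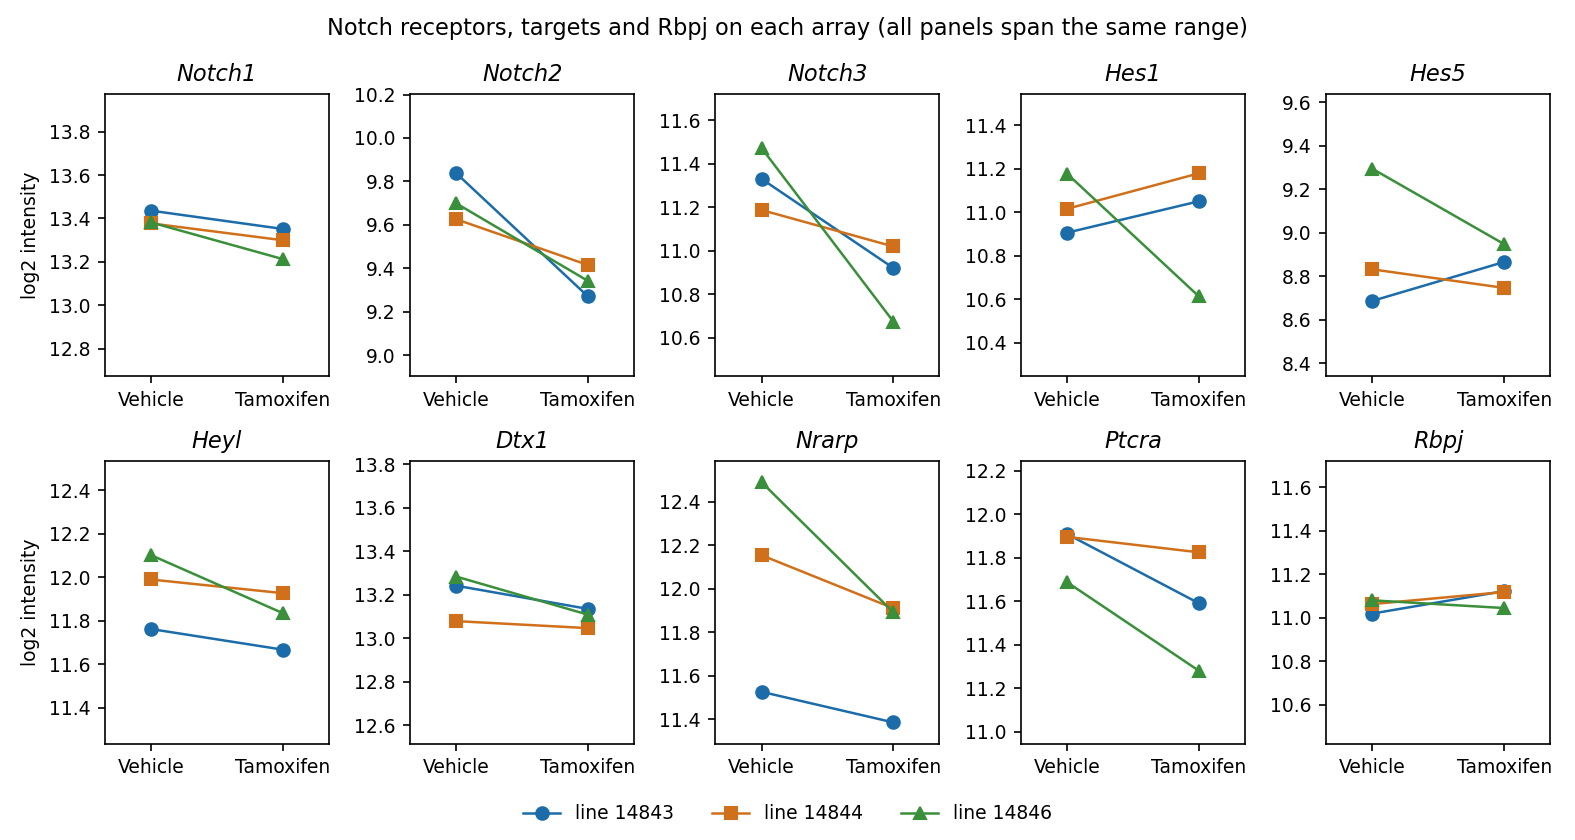
Log2 intensity of each gene (y axis) on the Vehicle and Tamoxifen array of each line (x axis), with 1 symbol and colour per line and a line joining the arrays of the same leukemia. All panels span the same range, so slopes can be compared. Notch1, Notch2 and Notch3 have every Tamoxifen array below every Vehicle array, whereas Hes1 was lower in line 14846 alone and Rbpj stayed nearly level.

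Among the receptors, Notch1, Notch2 and Notch3 all read lower on every Tamoxifen array than on any Vehicle array. Such a pattern was found in 11.5% of all tested genes. Notch2, a receptor also used by B cells and myeloid cells, read 915, 790.3 and 832 intensity units in Vehicle arrays of lines 14843, 14844 and 14846, and 618, 683 and 649 in their Tamoxifen arrays. The groups did not overlap, and line 14843 had both the highest Vehicle value and the lowest Tamoxifen value. The fitted level was 1.30-fold lower with Tamoxifen, a log2 difference of -0.38 ± 0.08 (SE; 95% interval -0.58 to -0.18). Its limma adjusted p was 0.058, the smallest of the 10 genes. It was 0.049 when only genes above the 50th percentile were tested and 0.042 when arrays were centred on their median, and it ranged from 0.042 to 0.13 over 11 alternatives. The call on Notch2 thus depends on those settings, while its direction was the same in all of them.

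Notch3, a receptor that is itself a Notch target in thymocytes, had the largest fitted difference of the 10. Its Vehicle arrays read 2575, 2331 and 2840.4 and its Tamoxifen arrays 1938, 2075 and 1634, in the same order of lines. The groups did not overlap, although the Tamoxifen array of line 14844 lay close to that line's Vehicle array. The fitted level was 1.37-fold lower, a log2 difference of -0.46 ± 0.12 (SE; 95% interval -0.76 to -0.15), with a limma adjusted p of 0.096. The within-line differences ran from -0.17 in line 14844 to -0.80 in line 14846, and the fitted value was -0.29 without line 14846. Over the 11 alternatives the adjusted p ranged from 0.069 to 0.17.

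Notch1, the receptor most often activated in T-ALL, read 11084, 10643 and 10677 in Vehicle arrays and 10456, 10086 and 9499 in Tamoxifen arrays. These groups did not overlap either, but the step was small, at 1.08-fold lower. The log2 difference was -0.11 ± 0.05 (SE; 95% interval -0.24 to 0.02), with a limma adjusted p of 0.27, and it was -0.05 after arrays were centred on the median of the tested genes. In percent, the interval runs from -15.3% to 1.36%. Where the Notch1 probes lie is not given in the sources used, so signal from the native gene and from a Notch-IC transgene, had it come from Notch1, cannot be told apart.

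**Figure D2:**
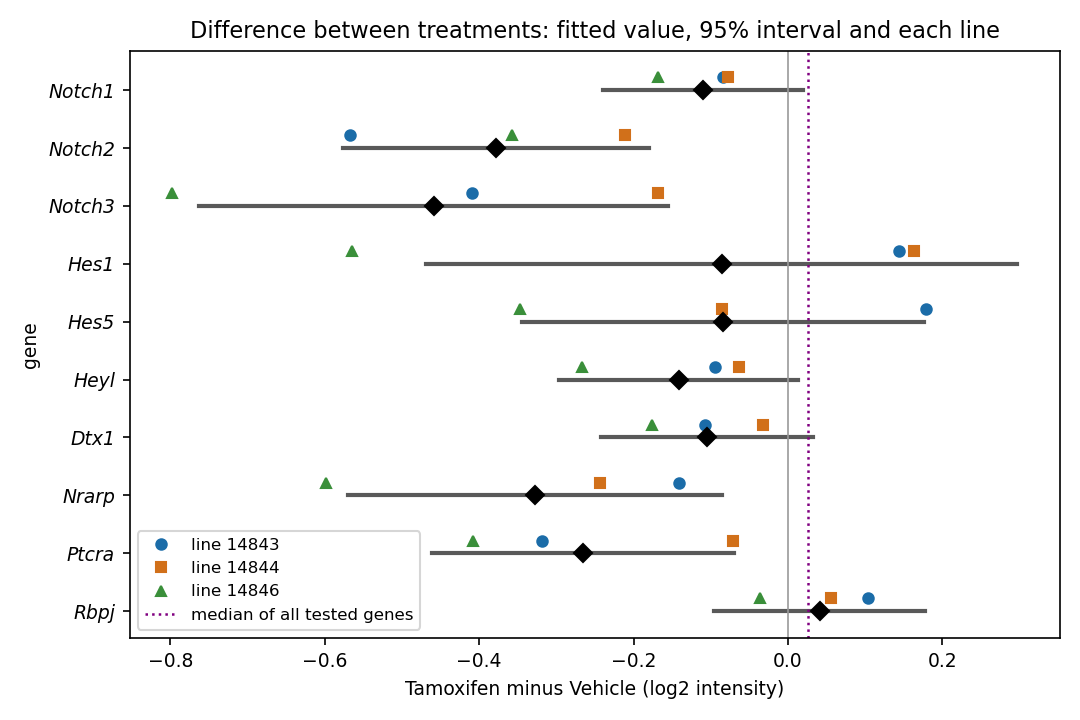
Tamoxifen minus Vehicle in log2 intensity (x axis) for each gene (y axis), with the fitted value as a black diamond, its 95% interval as a bar and the 3 within-line differences as coloured symbols. The intervals of Notch2, Notch3, Nrarp and Ptcra lie below 0, those of the other 6 genes include 0, and line 14846 gives the lowest value for 9 of the 10 genes, all but Notch2.

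Rbpj, the DNA-binding partner through which all Notch receptors act, was nearly level. It read 2075, 2138 and 2164 in Vehicle arrays and 2229, 2222 and 2111 in Tamoxifen arrays, and the groups overlapped. The log2 difference was 0.04 ± 0.05 (SE; 95% interval -0.10 to 0.18), with a limma adjusted p of 0.68. The interval covers changes from -6.4% to 13.1%. A further Rbpj probe set, with a mean of 6.20 log2 units, lay below the filter and gave a difference of 0.01.

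The targets varied in the size and sign of their differences, but their intervals overlapped and differences between targets were not tested. Nrarp and Ptcra read lower in all 3 lines by unequal steps, Heyl and Dtx1 read slightly lower in all 3, and Hes1 and Hes5 had signs that differed between lines. Nrarp, an ankyrin repeat protein that limits Notch complexes in a feedback loop, read 2947, 4555 and 5748.5 in Vehicle arrays of lines 14843, 14844 and 14846. Its Tamoxifen arrays read 2673, 3847 and 3798. The groups overlapped because line 14843 was low under both treatments. The fitted level was 1.25-fold lower, a log2 difference of -0.33 ± 0.10 (SE; 95% interval -0.57 to -0.08), with a limma adjusted p of 0.12. Without line 14846 the fitted difference was -0.19.

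Ptcra read 3849, 3814 and 3302 in Vehicle arrays and 3087, 3631 and 2489 in Tamoxifen arrays. Each line read lower, but the Tamoxifen array of line 14844 stayed above the Vehicle array of line 14846, so the groups overlapped. The log2 difference was -0.27 ± 0.08 (SE; 95% interval -0.46 to -0.07), with a limma adjusted p of 0.12. Without line as a block the spread between leukemias enters the error, and the adjusted p-values of Ptcra and Nrarp were 0.43 and 0.60, the highest of their alternatives.

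Heyl, a Hey family repressor, read 3473, 4067 and 4396 in Vehicle arrays and 3252, 3893 and 3654 in Tamoxifen arrays. Dtx1, a ubiquitin ligase that regulates Notch, read 9685, 8650.0 and 9971, and 8993, 8459 and 8829. Both read lower in each of the 3 lines, with groups that overlapped. The fitted log2 differences were -0.14 ± 0.06 (SE; 95% interval -0.30 to 0.01) for Heyl and -0.10 ± 0.05 (95% interval -0.24 to 0.03) for Dtx1. Their limma adjusted p-values were 0.24 and 0.31. Without line 14846 the differences were -0.08 and -0.07, and after arrays were centred on the median of the tested genes -0.08 and -0.05.

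Hes1, the best known Notch-induced repressor, read 1919, 2071 and 2318 in Vehicle arrays and 2121, 2319 and 1567 in Tamoxifen arrays. It was slightly higher with Tamoxifen in lines 14843 and 14844 and clearly lower in line 14846, whose Tamoxifen array was the lowest of the 6. The log2 difference was -0.09 ± 0.15 (SE; 95% interval -0.47 to 0.30), with a limma adjusted p of 0.76. Without line 14846 the sign turned, to 0.15 ± 0.07 (SE). The interval runs from -27.7% to 22.9%, so these arrays do not fix the direction of Hes1.

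Hes5, another Hes repressor, read 412, 456 and 628 in Vehicle arrays and 467, 429 and 494 in Tamoxifen arrays. Line 14846 had the highest value under each treatment, and the groups overlapped. The log2 difference was -0.08 ± 0.10 (SE; 95% interval -0.34 to 0.18), with a limma adjusted p of 0.65, and it was 0.05 without line 14846.

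By line, the 10 genes stood lowest against Vehicle in line 14846. There all 10 read lower with Tamoxifen, with a median of -0.35 on the log2 scale, and 44.6% of all tested genes were lower, with a median of 0.02. In line 14843, 7 of 10 were lower with a median of -0.10, and in line 14844, 8 of 10 with a median of -0.07, against 45.5% and 43.4% of all tested genes. A difference at or below the members' median was found in 8% of all tested genes in line 14846, 25.7% in line 14843 and 26.2% in line 14844. The lowest member was Notch3 in line 14846, at -0.80, Notch2 in line 14843, at -0.57, and Nrarp in line 14844, at -0.24. The 10 T lineage markers had medians of -0.08, 0.04 and 0.02 in lines 14843, 14844 and 14846. Single markers moved further, with Cd4 at -0.70, 0.46 and -0.01 and Cd8a at -0.44, 0.07 and 0.11 in the same order. Each line has 1 array per treatment, so whether the treatment difference itself varies between lines was not tested.

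**Figure D3:**
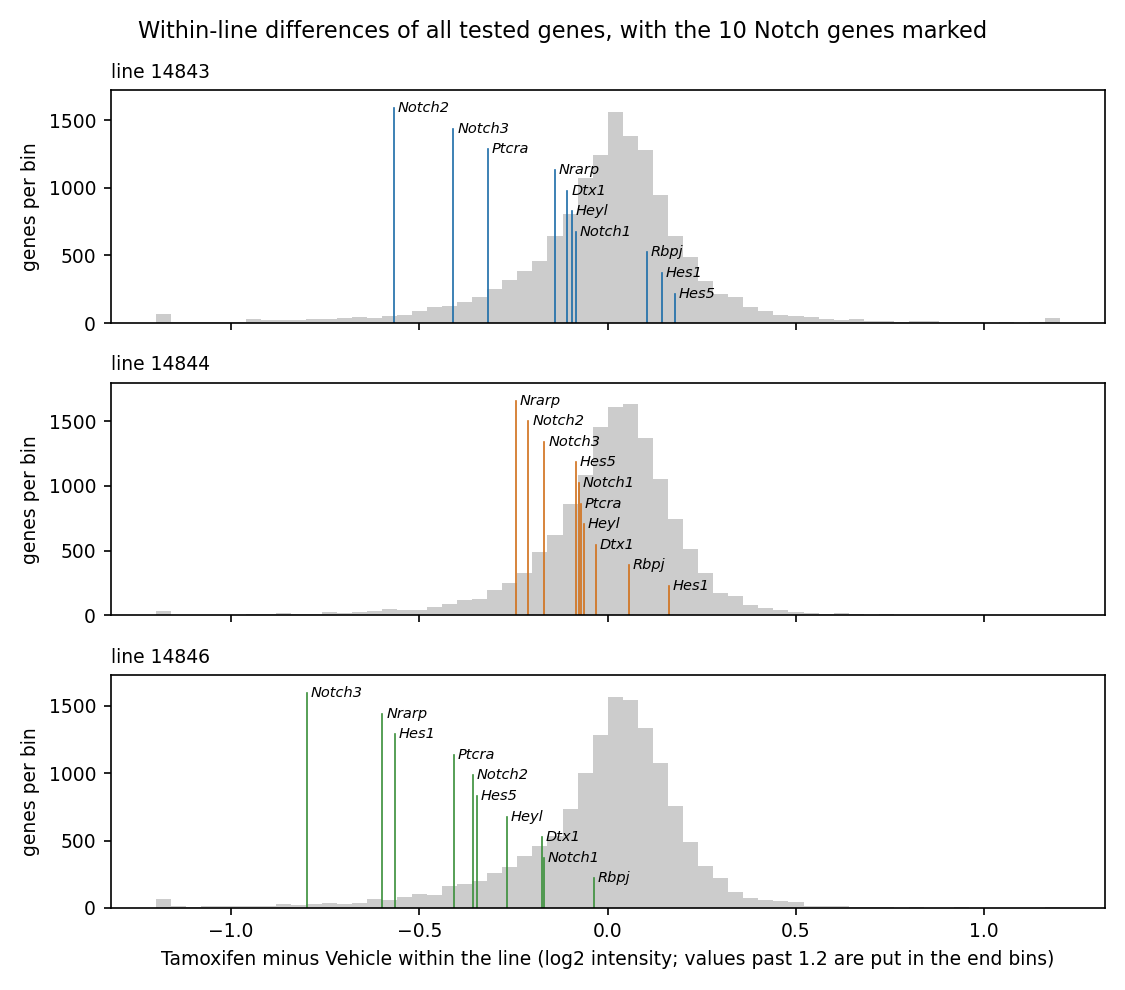
Counts of all tested genes (y axis, grey bars) by their Tamoxifen minus Vehicle difference in log2 intensity (x axis) in each line, with each of the 10 Notch genes marked by a labelled vertical line. The heights of the coloured lines only separate the names. In line 14846 all 10 marks lie below 0, and in lines 14843 and 14844 3 and 2 of them lie above 0.

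Between the 3 leukemias, mean levels over both treatments spanned the widest range for Nrarp, at 1.66-fold. Ptcra spanned 1.30-fold, Hes5 1.27-fold and Heyl 1.19-fold. By limma's moderated F test 0 of 10 passed an adjusted p of 0.05, against 3.11% of all tested genes. With only 10 genes, 0 cannot be told apart from that share. An unadjusted p under 0.05 was found for 3 of 10 (Nrarp, Ptcra and Heyl), against 19.3% of all tested genes. Averaged over treatments, Nrarp stood at 11.45 log2 units in line 14843, 12.03 in line 14844 and 12.19 in line 14846. Both arrays of line 14843 lay below all 4 arrays of the other lines. Its F test gave an adjusted p of 0.066, and 0.045 with trend and robust settings. Other alternatives went both ways. The smallest limma adjusted p between lines of any member was 0.027 without line 14846, but 0.14 without line 14843 and 0.11 without line 14844. That smallest value was 0.092 with a repeated quantile normalization and 0.40 without the treatment term, so the difference of Nrarp between lines depends on the settings. In the contrast of line 14846 with line 14843, 0.74 ± 0.12 log2 units (SE), Nrarp passed with a limma adjusted p of 0.039, as did 3.67% of all tested genes. Line 14844 against line 14843 gave 0.58 ± 0.12 with an adjusted p of 0.14, and line 14846 against line 14844 gave 0.16 ± 0.12 with an adjusted p of 0.68. In those contrasts 0.996% and 1.73% of all tested genes passed.

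For the other 9 genes no contrast between lines passed. Ptcra was highest in line 14844, at 11.86, and lowest in line 14846, at 11.49, a gap of 0.38 with a limma adjusted p of 0.17. Heyl was lowest in line 14843, at 11.71, against 11.96 and 11.97, and Hes5 was highest in line 14846, at 9.12, against 8.78 and 8.79. Hes1 spanned 0.20 log2 units, from 11.10 in line 14844 to 10.90 in line 14846, and Dtx1 spanned 0.13. Notch1, Notch2, Notch3 and Rbpj spanned 0.10, 0.03, 0.05 and 0.03. For these 4 genes the means over both treatments thus lay within 1.07-fold, while single arrays of 1 treatment could differ more, as those of Notch3 did.

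The tested genes most like Notch2 and Nrarp across the 6 arrays were listed. Likeness was the root mean square distance between log2 values after each gene was centred on its own mean. Nearest to Notch2, the member with the smallest treatment p, were Atp9b, Dnajc1 and Zbtb24, at distances of 0.04 log2 units each, where the median gene lay at 0.23. Their differences between treatments were -0.41, -0.35 and -0.32. Nearest to Nrarp, the member with the smallest p between lines, were Hipk2, Aldh1b1 and Tmem71, at 0.07, 0.10 and 0.10, where the median gene lay at 0.39. None of these 6 genes is on a Notch list used here. They were picked as the nearest of all tested genes over only 6 arrays, so short distances follow from the choice.

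Other genes of the pathway were taken from 7 lists ordered by role. Of 81 genes, 74 were tested. At a limma adjusted p under 0.05, 5 fell and 1 rose, beside 4.93% and 1.3% of all tested genes. For these lists, fell and rose refer to genes called at that threshold. Together that is 6 of 74, or 8.11%, which is near the 6.23% of all tested genes, and the median difference was 0.02 against 0.03. Without line as a block 0 passed. Of the genes left untested, Tle4 and Hey2 were too dim, Cdkn1a shared its probe set with another symbol, and the rest are not analysed here.

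Outside the cell, 8 of 8 other receptor and ligand genes had differences above 0, from 0.01 to 0.17, as did 58.6% of all tested genes. None was called, and the list median of 0.03 matched that of all tested genes. Dll4, a ligand that drives Notch1 in the thymus, gave 0.12 ± 0.05 (SE), and Dlk1, a non-canonical ligand, gave 0.17 ± 0.08. Levels on this list were low. Over the 6 arrays Dll1 read 6.66 to 6.78 and Dner 6.68 to 6.79 log2 units, close to the filter of 6.70. Dll4 read 7.27 to 7.59, and Dlk1, the highest of the list, 8.48 to 8.80. Differences at such levels need not reflect expression of a ligand. Among 5 genes for the sugars of Notch receptors, Mfng, a Fringe glycosyltransferase that tunes ligand binding, fell. It read 900.2, 951 and 1380.0 in Vehicle arrays of lines 14843, 14844 and 14846, and 617, 683 and 846 in Tamoxifen arrays. Every Tamoxifen array was below every Vehicle array, and Mfng was 1.49-fold lower, at -0.58 ± 0.06 (SE) with a limma adjusted p of 0.012. Its relative Rfng gave -0.33 ± 0.08, not called at an adjusted p of 0.085, while Lfng gave 0.06 and Pofut1 -0.04.

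None of 9 receptor cleavage genes was called. Adam10, the protease that makes the first cut after ligand binding, gave -0.26 ± 0.06 (SE; limma adjusted p of 0.082), and Psen2, a gamma-secretase subunit, gave -0.10 ± 0.08. Inside the nucleus, 1 of 8 coactivator genes fell, Maml1, a Mastermind protein of the Notch complex, at -0.26 ± 0.05 with an adjusted p of 0.041. Maml2 gave 0.37 ± 0.17, with signs that differed between lines. Of 12 corepressor genes 1 fell, L3mbtl3, a chromatin reader that binds Rbpj, at -0.30 ± 0.06 with an adjusted p of 0.043.

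Of 15 genes for turnover and trafficking, 2 fell and both encode Mind bomb ubiquitin ligases, which act on ligands in the cell that sends the signal. Mib1 read 1537, 1578 and 1385 in Vehicle arrays and 1064, 1207 and 894 in Tamoxifen arrays. The groups did not overlap, and Mib1 was 1.43-fold lower, at -0.52 ± 0.06 (SE) with a limma adjusted p of 0.016. Mib2 was 1.24-fold lower, at -0.31 ± 0.05 with an adjusted p of 0.033. Itch, a ligase that acts on Notch, gave -0.27 ± 0.06, short of the threshold at an adjusted p of 0.060. Cdk8 gave 0.19 ± 0.05, higher in all 3 lines and not called at an adjusted p of 0.11. Fbxw7, which marks active Notch for destruction, gave -0.02 ± 0.06. Of the 15 genes, 9 had differences above 0, or 60%, near the 58.6% of all tested genes, and the list median was 0.03.

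**Figure D4:**
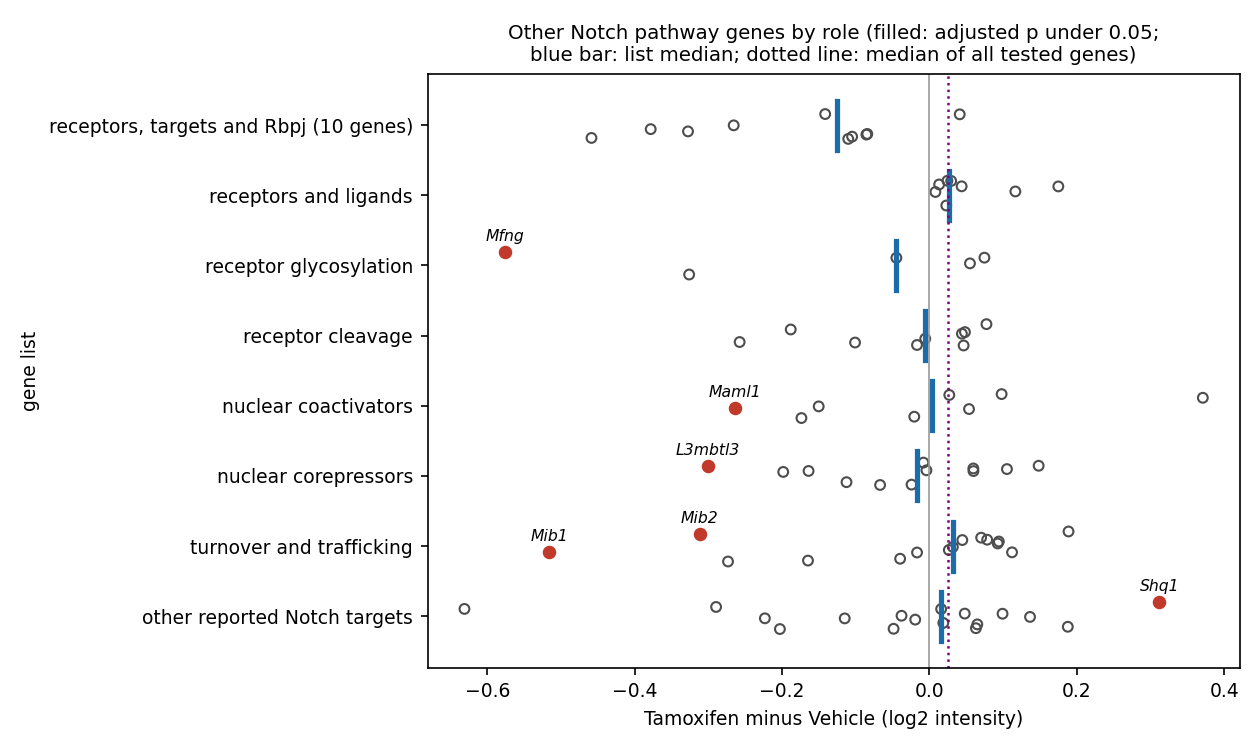
Tamoxifen minus Vehicle in log2 intensity (x axis) for the 10 Notch genes and for each list of other pathway genes (y axis), 1 circle per tested gene. Filled circles with names are Mfng, Maml1, L3mbtl3, Mib1 and Mib2, which fell, and Shq1, which rose; blue bars are list medians and the dotted line is the median of all tested genes.

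Among 17 tested genes of the list of other reported targets, 1 was called higher and 0 were called lower, while 8 had differences below 0. Shq1, an assembly factor for small nucleolar RNA complexes, rose by 0.31 ± 0.06 (SE) with a limma adjusted p of 0.038. Myc, a central Notch target in T-ALL, gave -0.20 ± 0.09 and Il2ra, the interleukin 2 receptor alpha chain, -0.05 ± 0.05. Hes6, a Hes family gene, gave -0.29 ± 0.08 and the cyclin gene Ccnd1 0.19 ± 0.06, with adjusted p-values of 0.11 and 0.12. Fjx1, a secreted regulator reported as a Notch target, gave -0.63 ± 0.23 with an adjusted p of 0.18, and the lines 14843, 14844 and 14846 stood at -0.30, -0.22 and -1.37 on their own. Il7r, the interleukin 7 receptor, gave 0.47 in line 14843 and -0.54 and -0.60 in lines 14844 and 14846. Of the 74 genes, only Gata3, a T lineage factor, passed the limma F test between lines, with an adjusted p of 0.025, at 11.74, 12.21 and 11.50 log2 units in lines 14843, 14844 and 14846. Igf1r, at an adjusted p of 0.12, and Mfng, at 0.0501, did not, although Mfng passed in the contrast of line 14846 with line 14843, at 0.54 ± 0.08 (SE) with a limma adjusted p of 0.030. The other genes nearest to a difference between lines in their lists were Aph1b at 0.14, L3mbtl3, Itch and Mib1 at 0.19, Tle1 at 0.20, Kat2b and Kat2a at 0.23 and 0.24, Dll4 and Poglut1 at 0.27 and 0.28, Aph1a at 0.45 and Jag2 at 0.52.

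None of these 6 calls held under each omission of a line. Without line 14844 none of the 74 passed, and without line 14843 or 14846 3 passed, of which Mfng and Mib1 were called both times, beside Il7r and Maml2 once each. After arrays were centred on the median of the tested genes, Mib1, Shq1 and Mfng passed. With a repeated quantile normalization Maml1 and L3mbtl3 lost their calls, and with trend and robust settings Maml1 lost its call.

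Markers of other cells were set beside these results. The 2 macrophage markers above the filter, Itgam and Lyz2, which neutrophils also express, gave 0.29 and 0.24. Both read higher in each of the 3 lines, as did 3986 of 13956 tested genes. Their limma p-values were 0.021 and 0.020 before adjustment and 0.13 each after it, so neither was called. The summed intensity of 6 macrophage markers was 1044 to 1295 in Vehicle and 1152 to 1529 in Tamoxifen arrays. That of 6 neutrophil markers was 1113 to 2077 and 1150.5 to 2828, highest in line 14844 under each treatment. By the limma F test between lines, 2 of 6 neutrophil markers and both Itgam and Lyz2 passed an adjusted p of 0.05, against 3.11% of all tested genes. Itgam and Lyz2 differed in opposite directions, as line 14843 had the highest mean level of Itgam and the lowest of Lyz2. The stromal marker Col1a2 also passed that F test, with an adjusted p of 0.011. The 5 measured B lineage markers summed to 562 to 1037 and 637 to 712, and 3 erythroid markers to 371 to 422 and 389 to 426. The 6 endothelial and stromal markers summed to 3224 to 3457 in Vehicle and 3459 to 3629 in Tamoxifen arrays. These groups just failed to overlap, with a median difference of 0.07 on the log2 scale. Pecam1, the marker with the highest level, weighs most in the sum and was at -0.02 in line 14846. Of the 5 tested, 4 had differences above 0, 2 were higher in all 3 lines and 0 were called. The T lineage markers summed to 58182 to 67995 and 57578 to 62122. Their part in the differences of the Notch genes was not tested.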

How the data were processed

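RNA of sorted leukemia cells was measured on 6 Affymetrix arrays, after Trizol extraction and biotin labelling, per the labels' protocols. The authors deposited probe set intensities of the RMA method, run in Affymetrix Expression Console 1.1 per the submitters' processing notes. Linear scale was read from the values. RMA equalizes the distributions of arrays, so overall shifts in signal are removed. Array number limits the precision.

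Log2 intensities were taken. Probe sets with 1 annotated symbol were kept, 21789 of 35556 (1621 had several, 12146 none here), and 21698 were found in RefSeq by Entrez identifier, with no change of symbol. For genes with several probe sets, the one with the highest mean was used. Genes at or above the 30th percentile, 6.70 log2 units, were tested. Vehicle and Tamoxifen arrays were compared by limma 3.58.1 under R 4.3.3 (two-sided, Benjamini-Hochberg over 13956 genes), with line as a block. Lines received both treatments, per the design text, and deviations from group means correlated at 0.64 to 0.68 between arrays of a line. Whether an array held 1 mouse or a pool is not given in the sources used. On simulated data for this comparison with 13956 genes, 200 of them changed, 36% of changes of 0.3 and 98% of changes of 0.5 log2 units were called. These shares need not hold for genes whose lines spread widely, such as Notch3, which was not called at -0.46 ± 0.12 (SE). Nor need they hold where more genes change, and 870 were called here.

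Members, lists and the naming rule (Zfx, all members, called list genes or else the 2 with the smallest p, and the 2 with the smallest p between lines) were chosen with earlier results of these data known. Outside the rule, Rfng, Lfng, Pofut1, Maml2, Itch, Cdk8, Fbxw7, Myc, Il2ra, Hes6, Ccnd1, Fjx1 and Il7r are given with treatment values and were picked after their values were seen. Alternatives changed the block, filter, moderation, scaling, probe set rule and lines.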

Additional observations from a re-analysis of the deposited data

Results flagged for a closer look

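Members whose within-line differences had opposite signs stand out because every line has 1 array per treatment, and none of these differences between lines was tested. Hes1 was at -0.56 log2 units in line 14846, against 0.14 and 0.16 in lines 14843 and 14844. Hes5 was at 0.18 in line 14843, against -0.09 and -0.35 in lines 14844 and 14846. Rbpj was at -0.036 in line 14846, against 0.10 and 0.06, all of them small.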

How the results depend on the processing

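Of 110 values of the 10 members under alternatives, 106 kept their direction and their side of the threshold. Notch2 passed in 2. The 7 members lower in all 3 lines had negative values in all 11 alternatives, and Hes1 and Hes5 reversed without line 14846. With each line left out, Hes1 ranged from -0.21 to 0.15 and Hes5 from -0.22 to 0.047. Members called between treatments numbered 0, and 1 with the filter at the 50th percentile or with arrays centred on their median. Members called between lines numbered 0, and 1 with trend and robust settings or with arrays centred on the median of the tested genes, an alternative chosen after seeing the data. When lines were left out in turn, this number ranged from 0 to 1. Without the replicate block, genes called fell from 870 to 295 and pathway genes called from 6 to 0, and no member was called with or without it. Leaving out lines gave 70 (without 14844) to 669 genes and 0 to 3 pathway genes, each with fewer samples. Arrays centred on the median of the tested genes gave 3 pathway genes and moved the median of all genes from 0.03 to 0.08. The cause was not tested. In the simulated data, with 200 changed genes, 36% of changes of 0.3 log2 units were called. In these arrays genes near that size went both ways. Mib2 at -0.31, L3mbtl3 at -0.30 and Shq1 at 0.31 were called, while Nrarp and Rfng, each at -0.33, were not. Notch3, at -0.46, was not called either. Why members were not called was not tested.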
